A study of Mus musculus with 6 samples.

Results

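The proteasome is the multi-subunit protease that degrades ubiquitin-tagged proteins in the cytosol and nucleus. Its genes were taken from the count table by mouse symbol, as every row named *Psma*, *Psmb*, *Psmc*, *Psmd*, *Psme*, *Psmf* or *Psmg* followed by a number, without the immunoproteasome genes *Psmb8*, *Psmb9* and *Psmb10*. The rule gave 46 of 18324 gene rows, and 45 of these were among the 11324 genes that passed the filter on low counts. The RNA was from the mouse melanoma line B16-F10, whose cells had been sorted by flow cytometry into high-pigmented cells (HPC) and low-pigmented cells (LPC) on the light scatter of their melanin. There were 3 libraries of each group, with no other treatment or genotype named in the labels, and all came from the same cell line. One HPC and one LPC library share each title suffix, 16-9-15, 18-8-14 or 1-9-14, and these are called pairs 1, 2 and 3. The labels do not say what the suffix marks or whether the replicates were separate cultures, so p values measure only the spread between these libraries, which may be technical.

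The barrel-shaped core particle is built from rings of alpha subunits, which form the gate, and rings of beta subunits, which hold the proteolytic sites. A regulatory particle caps it: a base with a ring of ATPases unfolds substrates, and a lid removes their ubiquitin chains. Other caps, the PA28 and PA200 activators, open the gate without ATP, and dedicated chaperones assemble the rings. Transcription of many subunit genes is raised together by the factor NRF1 (gene *Nfe2l1*) when proteasome activity is short.

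Sorted by role, the 46 rows held 7 alpha ring genes, 8 beta ring genes, 6 ATPases, 3 other base subunits, 8 lid subunits, 5 activator and inhibitor genes and 7 assembly chaperones. The remaining rows were a pseudogene, *Psme2b-ps*, and *Psmc3ip*, which shares the prefix but encodes a meiotic recombination protein rather than a proteasome subunit. *Psmc3ip* was the row that failed the filter, with 0 counts in both libraries of pair 2. All 7 melanocytic marker genes checked were detected, with summed levels of 4443 to 20733 CPM in HPC and 6189 to 17282 CPM in LPC. Leukocyte markers (2 of 5 detected, *Ptprc* at 0 or without a row) summed to 2.69 to 33.2 CPM in HPC and 0 to 2.64 CPM in LPC. Fibroblast markers (3 of 4, *Dcn* at 0 or without a row) summed to 0.935 to 33.2 CPM and 2.57 to 5.29 CPM, endothelial markers (1 of 2) to 0 to 11.6 CPM and 0 CPM, and no keratinocyte marker was detected. The highest leukocyte, fibroblast and endothelial sums in HPC were all in the library of pair 2. The part of these low levels in the results was not tested. CPM are counts scaled to a common library size after TMM scaling (edgeR's trimmed-mean normalisation). Libraries were of the 3′-end type, so a count does not grow with transcript length, and levels are compared mainly between libraries. Sums, shares and ratios over several genes weight each gene by its own count, so they depend most on genes with high counts.

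Gene counts ranged from 3819605 to 7311131 per library, and 6383 to 43952 of them fell on the 46 rows. Pair 2 stood apart. One row, *RP23-81C12.3*, held 53.9% and 27.1% of its gene counts in HPC and LPC, against at most 5.03% elsewhere. The proteasome rows made up 0.167% (95% Wilson interval 0.163% to 0.171%) and 0.307% (0.302% to 0.312%) of its counts, against 0.553% (0.548% to 0.559%) to 0.789% (0.781% to 0.797%) in the other libraries. Such intervals cover counting error only. The shares are of all gene counts, *RP23-81C12.3* and the mitochondrial ribosomal RNA rows included. The latter held 12.2% and 7.69% in HPC and LPC of pair 2, against at most 1.99% elsewhere. In TMM-scaled CPM the 44 subunit, regulator and chaperone genes summed to 3715 and 4191 in pair 2, against 4247 to 5929 in the other libraries. After TMM scaling 1 CPM stood for fewer than 2 reads in the HPC library of pair 2, where 4 of the 46 rows had 0 counts and 7 had fewer than 10. Values are therefore given by pair, and for many of the genes and classes described at length also without pair 2.

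Most proteasome genes were slightly lower in high-pigmented than in low-pigmented cells in pairs 1 and 3, but none passed the test over all libraries. In pairs 1 and 3 the median log2 difference of the 45 genes was -0.25 and -0.14, with 37 and 31 of the 45 lower in HPC. In pair 2 the median was -0.15 with 25 of 45 lower, while the median of all genes tested there was -0.20. Among the 39 genes with at least 10 counts in both libraries of pair 2, the median was 0.05 and 19 were lower. Over all genes the medians in pairs 1 and 3 were 0.02 and -0.00. The lower values in pairs 1 and 3 were shared by 28 of the 45 genes (62.2%), where 28.3% of all genes tested were lower in both. Of the 45, 14 (31.1%) were lower in HPC in all 3 pairs, against 17.2% of all genes, and 2 (4.44%), *Psmd8* and *Psmf1*, were higher in all 3, against 12.9%. The 14 include *Psmd5*, *Psmg4* and *Psme2b-ps*, which had fewer than 10 counts in the HPC library of pair 2. The 45 genes share libraries and scaling, so the shares are a description and carry no test.

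**Figure D1:**
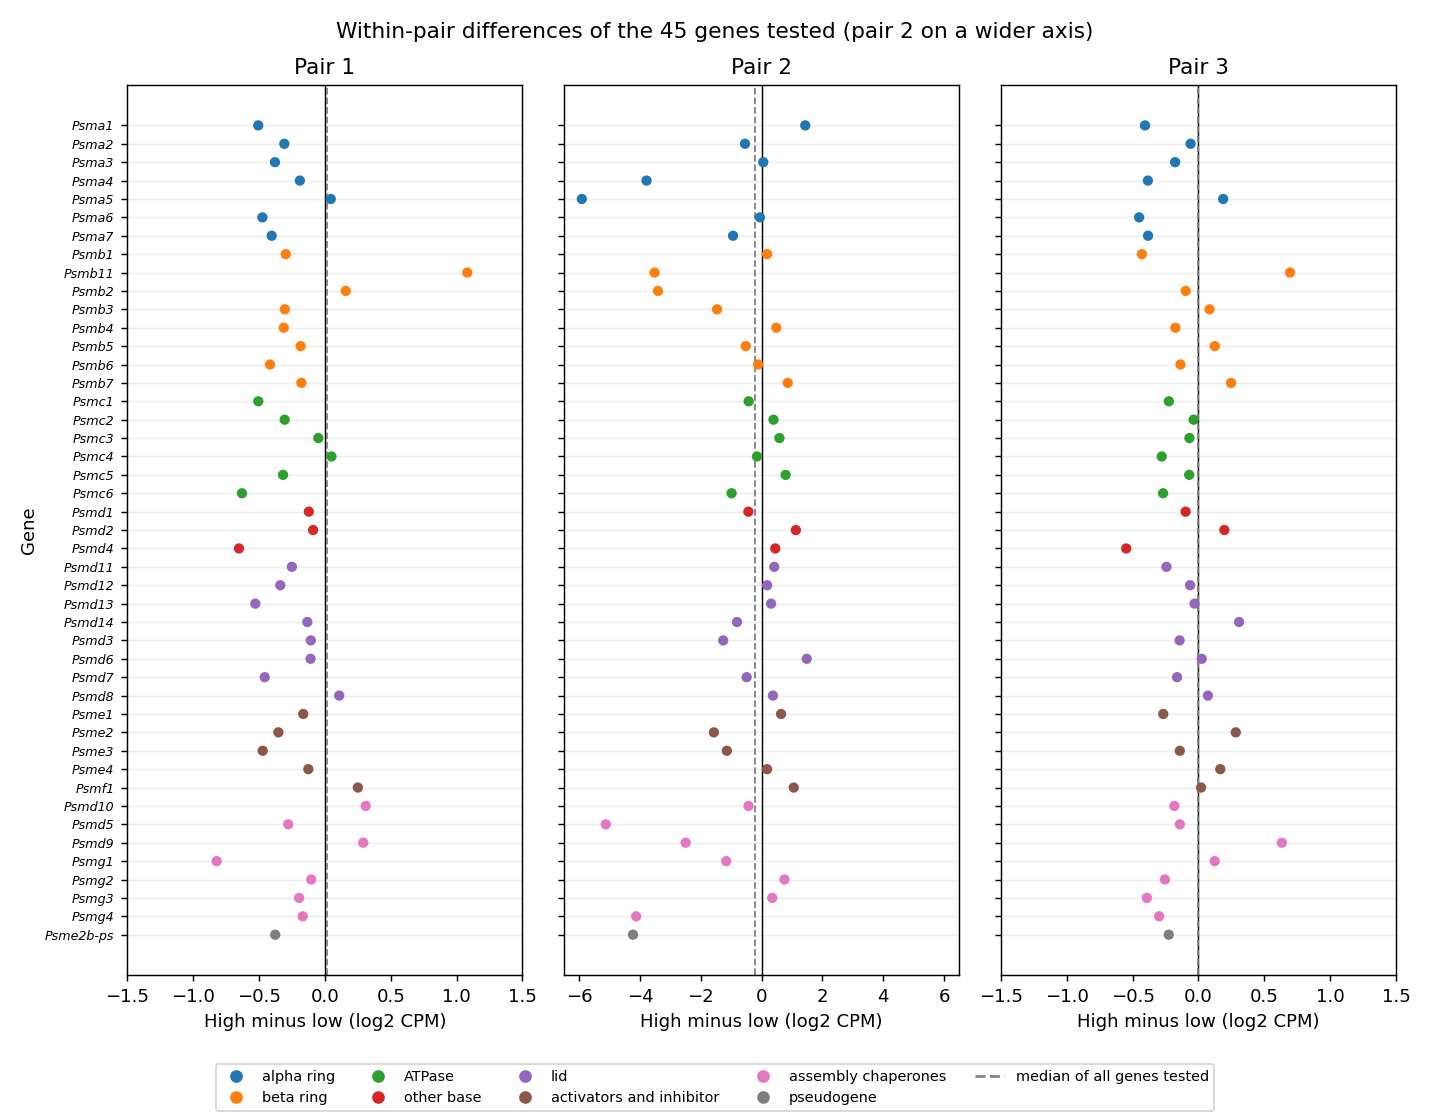
Within-pair difference (HPC minus LPC, log2 CPM) of each of the 45 proteasome rows tested, coloured by class, with the median of all genes tested as a dashed line; the axis of pair 2 is wider. In pairs 1 and 3, 37 and 31 points lie below 0, and in pair 2 the points spread from -5.91 to 1.48, the lowest being a row with 0 counts in HPC whose value depends on the prior count added.

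By the quasi-likelihood F test of edgeR, with p values adjusted by Benjamini-Hochberg over all genes, 0 of the 45 had an adjusted p under 0.05, as did 0 of all 11324 genes (0%), and 0 of the 45 had an unadjusted p under 0.05 (0.336% of all genes did). DESeq2 called 0 as well. The median log2 fold change of the 45 genes was -0.19, with 34 of them below 0, beside a median of -0.04 and 53% below 0 over all genes. That median depended on single libraries of pairs 1 and 2: it was -0.36 without the HPC and -0.048 without the LPC library of pair 1, and -0.0099 without the HPC and -0.38 without the LPC library of pair 2. With the pair number as a block in the edgeR model, 0 genes passed (0% of all genes) and 2 of the 45 had an unadjusted p under 0.05 (1.88% of all genes), *Psma7* and *Psmc6*, both lower in HPC (1.1% of all genes). Without pair 2 and with the block, 155 of 11906 genes passed (1.3%) and 2 of the 46 rows did, *Psmd4* and *Psmb11*. Of these, *Psmd4* was among the 0.37% of all genes that passed and were lower in HPC, and *Psmb11* among the 0.932% that passed and were higher. In that fit 34 of the 46 rows were below 0, against 49.9% of all genes, and 9 had an unadjusted p under 0.05, against 12.1%. Of these 9, 8 were lower in HPC, where 6.06% of all genes were both lower and past that threshold. Once group and pair are fitted, little replication is left for each gene in that fit. Its standard errors and calls therefore lean on spread estimated across genes. Without pair 2 and without the block 0 genes passed, and 1 of the 46 rows, *Psmb11*, had an unadjusted p under 0.05, against 0.899% of all genes.

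**Figure D2:**
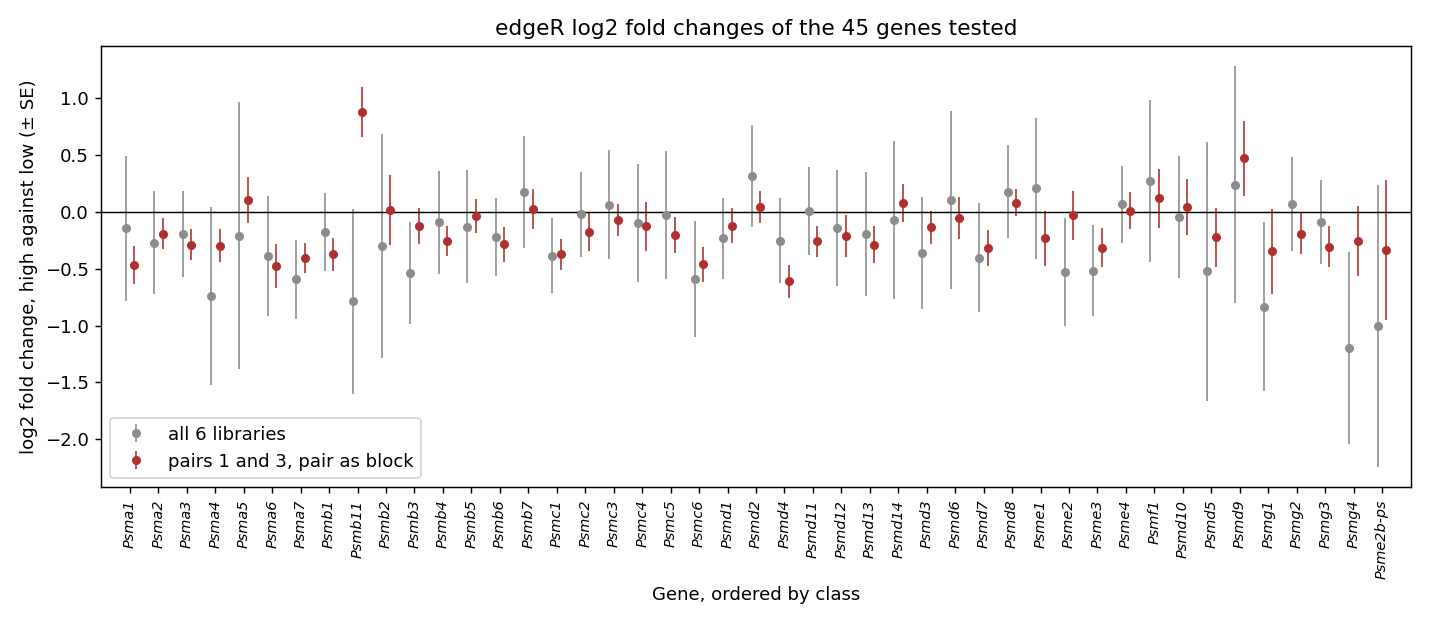
edgeR log2 fold changes (HPC against LPC) with standard errors for the 45 proteasome rows tested, in all 6 libraries (grey) and in pairs 1 and 3 with the pair as a block (red). Standard errors are smaller in the second fit, and *Psmd4* at -0.61 and *Psmb11* at 0.88 are the 2 that passed there. That fit leaves little replication for each gene, so its standard errors lean on spread estimated across genes.

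The alpha ring genes were mostly lower in HPC. All 7 had a log2 fold change below 0 over the 6 libraries, with a median of -0.27, and the within-pair medians were -0.38, -0.55 and -0.38 in pairs 1, 2 and 3. In pairs 1 and 3, 6 of the 7 were lower in HPC, the exception being *Psma5*. Summed over the ring, the level in HPC was 0.793, 0.605 and 0.839 times that in LPC. None of the 7 passed the test, in any fit. When single libraries were left out, which leaves a pair incomplete, the ring's median in the fit ranged from -0.52 without the HPC library of pair 1 to -0.048 without the LPC library of pair 1, with -0.071 and -0.48 without the HPC and the LPC library of pair 2. Without pair 2 it was -0.29, and -0.30 with the block, where 6 of the 7 were lower.

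*Psma7*, which encodes the alpha4 subunit, had 230.4, 212 and 211 CPM in the HPC and 305, 407 and 276 CPM in the LPC libraries of pairs 1, 2 and 3. All 3 HPC values lay below all 3 LPC values, and the closest pair of values was that of pair 1 HPC and pair 3 LPC. Its mean was 218 ± 10.8 CPM (SD, n = 3) in HPC and 329 ± 68.7 CPM (SD, n = 3) in LPC. The log2 fold change from edgeR was -0.59 ± 0.35 (SE), adjusted p 0.9996. With the pair as a block it was -0.57 ± 0.19 (adjusted p 0.927). Without pair 2 it was -0.40 ± 0.13 with the block (adjusted p 0.154) and -0.40 ± 0.25 with no block (adjusted p 0.99998).

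Such a gap between the groups was seen in 4 of the 45 genes, each with HPC below LPC, where 3.31% of all genes tested had this pattern. The other genes were *Psmc1*, *Psme3* and the pseudogene *Psme2b-ps*. The gap of *Psme2b-ps* was very narrow, between 3.74 CPM in HPC of pair 1 (23 counts) and 3.88 CPM in LPC of pair 3 (37 counts). The reverse, HPC above LPC in every library, was seen in 0 of the 45 and in 2.43% of all genes.

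*Psma4*, the alpha3 subunit gene, had 154, 9.89 and 112 CPM in HPC and 175, 141 and 146 CPM in LPC. The HPC library of pair 2 stood far below the others, on 17 counts, and set most of the log2 fold change of -0.74 ± 0.78 (SE). Without pair 2 and with the block the change was -0.30 ± 0.15 (SE; adjusted p 0.419). An exon of *AY074887* lies across *Psma4* on the other strand, and 783 nucleotides are nearly the same in *Gm6542*, so its reads may be shared. *Psma5*, the alpha5 gene, had 0 counts in the HPC library of pair 2 and 70 in its LPC library, which makes it at least 11.5-fold lower there against a floor of 3 counts per library. In pairs 1 and 3 its differences were 0.05 and 0.19, so the gap was seen in pair 2 alone. An exon of *1700010K24Rik* on the other strand and 2 near copies, of up to 952 nucleotides in *Gm8394*, leave its counts uncertain too. *Psmd5* and *Psme2b-ps* also lacked counts there while the LPC library had some: *Psmd5* was at least 6.55-fold and *Psme2b-ps* at least 3.44-fold lower.

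The other alpha genes followed the ring. *Psma1*, *Psma3* and *Psma6* had differences of -0.51, -0.38 and -0.47 in pair 1 and of -0.41, -0.18 and -0.45 in pair 3. In pair 2 the same genes were at 1.44, 0.05 and -0.06, so the pattern of the first and last pair was not repeated there. *Psma3* has near copies in 8 other genes, the longest 772 nucleotides. *Psma2* was lower in every pair, with differences of -0.31, -0.55 and -0.06, and has a near copy of 546 nucleotides in *Gm6474*.

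In the beta ring 7 of 8 genes had a log2 fold change below 0, with a median of -0.20, and the within-pair medians were -0.24, -0.32 and -0.01. The summed level in HPC was 0.845, 0.802 and 0.949 times that in LPC. The ring thus lay closer to equal levels in pair 3 than the alpha ring did, and 4 of its 8 genes were lower there. The sums include *Psmb11*, whose counts are uncertain. In pair 2 it gave 9.89 of 648 CPM in HPC and 117 of 807 CPM in LPC. The median in the fit was -0.11 without the HPC and -0.32 without the LPC library of pair 2, and -0.080 without pair 2 and with the block, where 5 of the 8 were lower.

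None of the 3 genes of proteolytic beta subunits passed the test, in any fit. *Psmb5*, whose product cuts after hydrophobic residues, had 149, 55.3 and 139 CPM in HPC and 169, 79.5 and 128 CPM in LPC. *Psmb6*, which cuts after acidic residues, had 113, 141 and 120.4 CPM in HPC and 151, 152 and 132 CPM in LPC, and was lower in HPC in every pair, unlike *Psmb5* and *Psmb7*. *Psmb7*, which cuts after basic residues, had 85.6, 54.7 and 63.1 CPM in HPC and 96.8, 30.0 and 53.1 CPM in LPC. The groups overlapped in all 3 genes. Near copies of 796 nucleotides for *Psmb5* and 265 for *Psmb6* may share their reads. So may an exon of *Mir686* across *Psmb5* on the same strand and one of *Nek6* across *Psmb7* on the other strand. Their log2 fold changes were -0.13 ± 0.49, -0.22 ± 0.34 and 0.18 ± 0.49 (SE), each with an adjusted p of 0.9996 in edgeR, and without pair 2 and with the block -0.04 ± 0.15, -0.29 ± 0.15 and 0.02 ± 0.18.

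*Psmb4*, a structural subunit gene, had 249, 165 and 232 CPM in HPC and 309, 118 and 262 CPM in LPC, and was lower in HPC in pairs 1 and 3 only. *Psmb11* went the other way in those pairs. It encodes beta5t, known from the thymic cortex, and had 39.5, 9.89 and 43.4 CPM in HPC and 18.5, 117 and 26.7 CPM in LPC. HPC was thus the higher library in pairs 1 and 3 (differences of 1.08 and 0.70) and the lower one in pair 2 (-3.52). Over 6 libraries its log2 fold change was -0.79 ± 0.81 (SE; adjusted p 0.9996), and without pair 2 and with the block it rose by 0.88 ± 0.22 (SE; adjusted p 0.0444), so the direction depends on pair 2. Its counts are uncertain: stretches of at least 100 nucleotides at 95% identity occur in 41 further genes, and 27 of those have a row of their own.

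**Figure D3:**
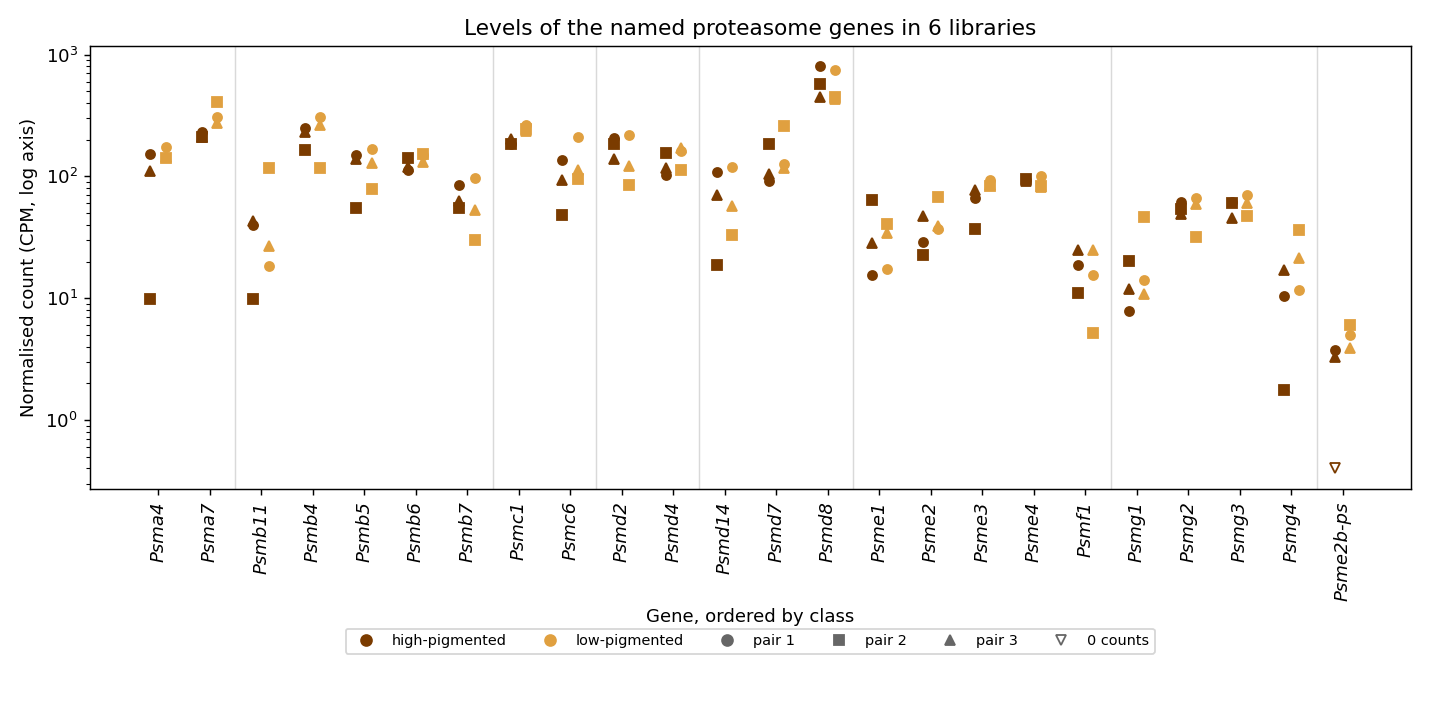
Normalised counts (CPM, log axis) of the 24 named rows in each library, ordered by class; colour gives the group and the marker shape the pair, and an open triangle marks 0 counts. The squares of pair 2 stand apart from the other pairs in many rows, as in *Psma4*, *Psmd14* and *Psmg4*, while the HPC and LPC points of *Psma7* and *Psmc1* do not overlap.

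The ATPase genes were lower in HPC in pairs 1 and 3, by medians of -0.31 and -0.15, with 5 and 6 of the 6 genes lower. In pair 2 the median was 0.12 and 3 of 6 were lower. The summed level in HPC was 0.779, 0.923 and 0.901 times that in LPC, so the sum was lower in each pair. The median in the fit was -0.063, turned to 0.062 without the HPC library of pair 2 and to 0.18 without the LPC library of pair 1, and was -0.19 without pair 2 and with the block. None of the 6 passed, in any fit.

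*Psmc1*, which encodes the ATPase Rpt2, had 185, 183 and 201 CPM in HPC and 263, 246 and 235 CPM in LPC. The groups did not overlap, and pair 2 did not stand apart here. The means were 189.7 ± 9.76 CPM and 248 ± 14.4 CPM (SD, n = 3 each). In edgeR the log2 fold change was -0.39 ± 0.33 (SE), adjusted p 0.9996. With the pair as a block it was -0.39 ± 0.17 (adjusted p 0.927). Without pair 2 it was -0.37 ± 0.14 with the block (adjusted p 0.226) and -0.38 ± 0.25 with no block (adjusted p 0.99998). Copies of *Psmc1* sequence lie in 2 other genes, the longest stretch being 1306 nucleotides in *AC110212.1*, so its counts are uncertain. *Psmc6*, the gene of Rpt4, had 137, 48.3 and 92.9 CPM in HPC and 211, 96.1 and 112 CPM in LPC. It was lower in HPC in every pair (differences of -0.63, -0.99 and -0.27), although the groups overlap because the pairs differ in level. Its log2 fold change was -0.59 ± 0.51 (SE; adjusted p 0.9996, edgeR). Without pair 2 and with the block it was -0.46 ± 0.15 (adjusted p 0.161). The remaining ATPases, *Psmc2*, *Psmc3*, *Psmc4* and *Psmc5*, had log2 fold changes between -0.10 and 0.07.

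Of the other base subunits, *Psmd4* encodes Rpn10, a receptor for ubiquitin chains. Its level was 102, 154 and 116 CPM in HPC and 161, 113 and 170.1 CPM in LPC. HPC was the lower library in pairs 1 and 3 (-0.65 and -0.55) and the higher one in pair 2 (0.45). Without pair 2 and with the block *Psmd4* fell by 0.61 ± 0.15 on the log2 scale (SE; adjusted p 0.0375, edgeR), while over all 6 libraries its log2 fold change was -0.25 ± 0.37 (SE; adjusted p 0.9996). *Psmd4*, at chr3:95032694-95042614 on the minus strand (GRCm38), had no near-identical copy or overlapping exon in the annotation. *Psmd2*, the gene of the scaffold subunit Rpn1, had 207, 185 and 139 CPM in HPC and 220.3, 84.6 and 122 CPM in LPC, with its largest difference, 1.13, in pair 2. Its log2 fold change was 0.32 ± 0.45 (SE), but 0.049 without the LPC library of pair 2, 0.78 without the LPC library of pair 1 and 0.043 ± 0.14 without pair 2 and with the block. *Gm5422* carries a near copy of 2726 nucleotides. *Psmd1*, the other large scaffold gene, differed by -0.12, -0.44 and -0.10 in the 3 pairs. An exon of *Gm21972* lies across *Psmd1* on the same strand, so its reads may be shared.

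The summed level of the lid genes was near equal in the groups, with HPC at 0.938, 1.06 and 0.982 times LPC. Without regard to abundance, 7, 3 and 5 of the 8 genes were lower in HPC in pairs 1, 2 and 3, with medians of -0.19, 0.25 and -0.05. The median in the fit was -0.11, with 0.083 without the HPC library of pair 2, 0.25 without the LPC library of pair 1 and -0.17 without pair 2 and with the block. The sum was carried by *Psmd8*, the gene of Rpn12, which made up between 38.6% and 49.9% of the class in the 6 libraries. The near-equal sum thus says little of the other lid genes, and a lid sum without *Psmd8* was not computed. *Psmd8* had 805, 577 and 451 CPM in HPC and 746, 446 and 429 CPM in LPC. It was higher in HPC in each pair, by 0.11, 0.37 and 0.07, yet the pairs differed from each other by more than the groups did. Its log2 fold change was 0.18 ± 0.41 (SE; adjusted p 0.9996, edgeR), and 0.080 ± 0.12 (SE) without pair 2 and with the block.

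*Psmd14* encodes the deubiquitinase Rpn11, which cuts the ubiquitin chain from the substrate. It had 109, 18.6 and 70.3 CPM in HPC and 119, 32.9 and 56.7 CPM in LPC, with both libraries of pair 2 below the others. Its differences of -0.13, -0.81 and 0.31 did not share a direction. *Psmd7*, the gene of its partner Rpn8, had 91.6, 185 and 104 CPM in HPC and 126, 260.4 and 116 CPM in LPC, here with pair 2 above the others. HPC was lower in every pair (-0.46, -0.49 and -0.16), and its log2 fold change was -0.40 ± 0.48 (SE), or -0.32 ± 0.16 without pair 2 and with the block. The remaining lid genes, *Psmd3*, *Psmd6*, *Psmd11*, *Psmd12* and *Psmd13*, had log2 fold changes between -0.36 and 0.10. Of these, *Psmd11* shares near-identical stretches with 190 other genes and *Psmd3* with 54, so their counts are uncertain.

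**Figure D4:**
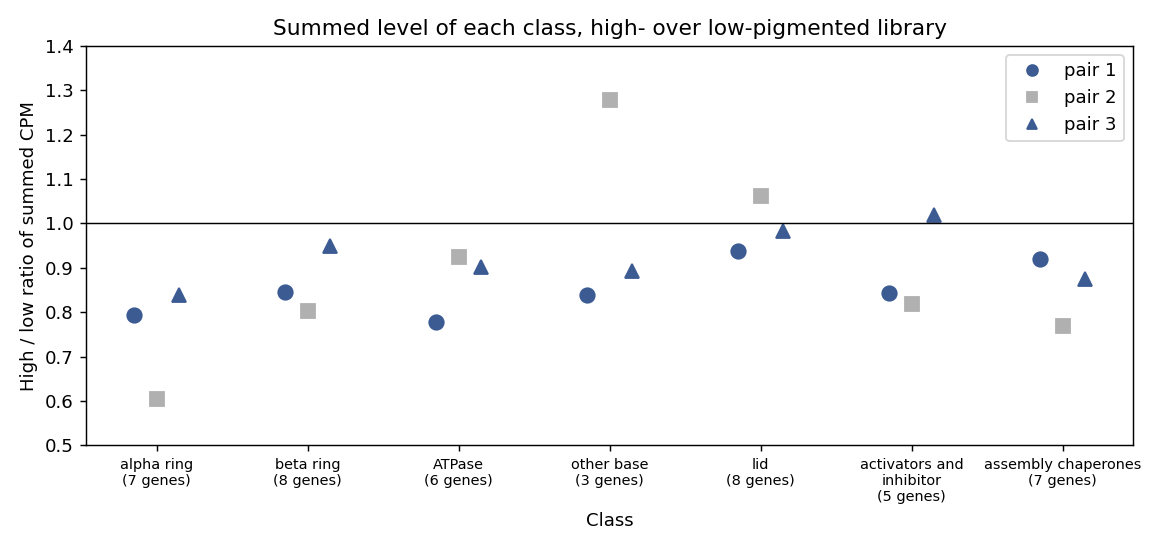
Ratio of the summed CPM of each class in the HPC to the LPC library of pairs 1 (circles), 2 (grey squares) and 3 (triangles), with equal levels at 1. The alpha ring lies between 0.605 and 0.839, the lid between 0.938 and 1.06, and the other base subunits of pair 2 reach 1.28. The lid sum is carried by *Psmd8*, which was higher in HPC in each pair.

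Core and regulatory particle genes were set side by side by these sums. Over alpha and beta rings together HPC stood at 0.817, 0.699 and 0.891 times LPC, and over ATPases, other base and lid subunits at 0.876, 1.06 and 0.939 times. The ratio of core to regulatory particle CPM was 0.695, 0.552 and 0.786 in HPC and 0.745, 0.842 and 0.829 in LPC, lower in HPC in each pair. Without *Psmd8* it was 0.985, 0.755 and 0.998 in HPC and 0.979, 1.08 and 1.02 in LPC. The order in pair 1 was then reversed by a small margin, so the ratio in that pair rested on *Psmd8*. The ratio of alpha to beta CPM was 1.07, 0.833 and 1.01 in HPC and 1.14, 1.10 and 1.14 in LPC. In pair 2 the values of the core and of the rings rest in part on *Psma7*, *Psma4* and *Psmb11*. There *Psma7* had 212 CPM in HPC and 407 CPM in LPC. *Psma4* and *Psmb11* each had 9.89 CPM in HPC, against 141 and 117 CPM in LPC. Ratios without these genes were not computed.

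The activators and the inhibitor had no common direction. Their within-pair medians were -0.16, 0.18 and 0.02, and 3 of the 5 had a log2 fold change above 0. Their median in the fit was 0.067, but below 0 without the HPC library of pair 2 (-0.26) or 3 (-0.041), without the LPC library of pair 1 (-0.080) or 2 (-0.14), and at -0.029 without pair 2 and with the block. The PA28 ring of the cytosol is made of the products of *Psme1* and *Psme2*, both raised by interferon in many cells. *Psme1* had 15.5, 63.4 and 28.6 CPM in HPC and 17.4, 40.6 and 34.5 CPM in LPC, and *Psme2* had 28.8, 22.7 and 47.5 CPM in HPC and 36.9, 68.0 and 38.9 CPM in LPC. Although their proteins share a ring, the genes shared a direction in pair 1 only. In pairs 1, 2 and 3 *Psme1* differed by -0.16, 0.64 and -0.27, and *Psme2* by -0.35, -1.57 and 0.28. Their log2 fold changes without pair 2 and with the block were -0.23 ± 0.24 and -0.029 ± 0.22 (SE). The ratio of *Psme1* to *Psme2* was 2.79 in the HPC library of pair 2, on 109 and 39 counts, and lay between 0.471 and 0.887 in the other libraries. Each has a near copy elsewhere, the longest of 224 nucleotides for *Psme1* and 794 for *Psme2*. The copy of *Psme2* lies in a gene named *Psme2b*. The pseudogene row *Psme2b-ps* has no entry under that symbol in the annotation used. Whether both names mean the same gene, with reads shared with *Psme2*, was not checked.

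*Psme3*, which encodes the nuclear PA28 gamma, had 67.0, 37.2 and 77.6 CPM in HPC and 93.0, 82.6 and 85.7 CPM in LPC, with no overlap between the groups. The means were 60.6 ± 20.9 CPM and 87.1 ± 5.36 CPM (SD, n = 3 each), and its log2 fold change was -0.52 ± 0.40 (SE; adjusted p 0.9996, edgeR). Without the HPC library of pair 2 it was -0.26, and without pair 2 and with the block -0.31 ± 0.17 (SE; adjusted p 0.489, edgeR). *Psme4*, the gene of PA200, had 92.6, 94.3 and 92.1 CPM in HPC and 101, 83.2 and 82.1 CPM in LPC, so its levels varied little, pair 2 included. *Psmf1*, the gene of the inhibitor PI31, had 18.5, 11.1 and 25.0 CPM in HPC and 15.5, 5.15 and 24.7 CPM in LPC, higher in HPC in each pair by 0.25, 1.06 and 0.02. The pseudogene *Psme2b-ps* had 3.74, 0 and 3.27 CPM in HPC and 4.96, 6.003 and 3.88 CPM in LPC, with at most 37 counts in a library.

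Assembly chaperones were lower in HPC in 5 of 7 genes over all libraries, with within-pair medians of -0.17, -1.16 and -0.18. The median in the fit was -0.087, turned to 0.034 without the HPC library of pair 2, and was -0.22 without pair 2 and with the block. The median of pair 2 rested on small counts, since 3 of the 7, *Psmd5*, *Psmd9* and *Psmg4*, had fewer than 10 counts in its HPC library. *Psmg1* and *Psmg2*, whose products pair to assemble the alpha ring, had 7.81, 20.4 and 11.8 CPM and 61.7, 54.1 and 49.2 CPM in HPC. In LPC they had 14.0, 46.0 and 10.8 CPM and 66.3, 32.0 and 58.8 CPM. In pair 2 *Psmg1* was lower in HPC (-1.16) and *Psmg2* higher (0.75). *Psmg3* had 61.3, 60.5 and 45.9 CPM in HPC and 70.2, 47.5 and 60.4 CPM in LPC. Its partner *Psmg4* had 10.4, 1.75 and 17.2 CPM in HPC and 11.7, 36.0 and 21.2 CPM in LPC, and its log2 fold change of -1.20 ± 0.85 (SE) came mostly from pair 2, where it had 3 and 126 counts. Without pair 2 and with the block it was -0.25 ± 0.31 (SE; adjusted p 0.822). An exon of *Gm26938* lies across *Psmg3* on the same strand, so reads of *Psmg3* may be shared. *Psmd9* and *Psmd10*, chaperones of the base, had differences of 0.29 and 0.31 in pair 1, -2.50 and -0.43 in pair 2 and 0.63 and -0.18 in pair 3.

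Levels also differed between pairs 1 and 3. Both libraries of pair 1 lay above both of pair 3 in 23 of the 45 genes (51.1%), where 29.6% of all genes tested did, and the reverse held for 5 (11.1%), against 29.3%. The genes above in pair 1 included *Psma4*, *Psmb5*, *Psmc6*, *Psmd2*, *Psmd8* and *Psmd14*. Those above in pair 3 were *Psmc3*, *Psme1*, *Psme2*, *Psmf1* and *Psmg4*. The median SD of log2 CPM over libraries was 0.59 for the 45 genes and 0.87 for all genes over 6 libraries, and 0.27 and 0.39 over pairs 1 and 3.

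Sequence upstream of these genes is shown because many of them were lower together in pairs 1 and 3. Of the 46 rows, 38 matched a RefSeq promoter table (GRCm38.p6), and 250 bases before each start were searched on both strands. The letters TGACNNNGC, the core of the antioxidant response element that NRF1 and NRF2 bind, were present for 5 of 38 genes (13.2%), against 11.5% of all 27025 genes in the table. The 5 stretches are written 5′ to 3′ on the strand of the gene with the match in capitals. The *Psmd12* and *Psmc6* matches are on the opposite strand, so they read as the reverse complement.
*Psmb5*, chr14:54618024-54618052, minus strand: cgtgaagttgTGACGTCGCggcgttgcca
*Psmb6*, chr11:70525338-70525356, plus strand: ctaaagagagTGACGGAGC
*Psmc6*, chr14:45329587-45329615, plus strand: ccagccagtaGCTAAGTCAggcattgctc
*Psmd9*, chr5:123228149-123228177, plus strand: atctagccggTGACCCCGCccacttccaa
*Psmd12*, chr11:107479278-107479299, plus strand: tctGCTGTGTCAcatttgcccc
In pairs 1, 2 and 3 the differences were -0.18, -0.52 and 0.12 for *Psmb5*, -0.42, -0.11 and -0.14 for *Psmb6* and -0.63, -0.99 and -0.27 for *Psmc6*. They were 0.29, -2.50 and 0.63 for *Psmd9* and -0.34, 0.18 and -0.06 for *Psmd12*. HPC was thus lower for 4 of the 5 in pair 1, 4 in pair 2 and 3 in pair 3. Over the 45 genes tested, 82.2%, 55.6% and 68.9% were lower in pairs 1, 2 and 3. *Psmd9* had only 1 count in the HPC library of pair 2. The GC box GGGCGG was present for 21 of 38 genes (55.3%), against 35.4% of all genes in the promoter table. CCAAT was present for 14 (36.8%), against 37.5%. These shares are over the 27025 genes of that table, whether or not they were tested here. CACGTG and TCATGTG, letters that the pigment cell factor MITF can bind, were present for 3 genes (7.89%) and 1 gene (2.63%), against 6.86% and 3.72%. A match is a run of letters and not a shown binding site.

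Other genes of the pathway, from a list of further subunits, transcription factors and ubiquitin genes, gave 34 rows, of which 32 were tested. None passed in any fit, where at most 1.3% of all genes did. Of the 32, 20 (62.5%) had a log2 fold change below 0, against 53% of all genes. Of the 16 genes of ubiquitin and its delivery tested, 3 (18.8%) were lower in HPC in every pair, against 17.2% of all genes. These were *Rps27a*, *Uba6* and *Ubqln1*. Higher in every pair were 2 (12.5%), *Nploc4* and *Zfand2a*, against 12.9%. Among the 9 further subunits, chaperones and bound factors tested, *Pomp*, the core's maturation factor, was lower in HPC in every pair (-0.21, -0.54 and -0.13). *Shfm1*, the small lid subunit, differed by -0.14, -0.01 and -0.23, and *Adrm1*, a ubiquitin receptor of the base, by -0.05, -0.26 and -0.12. *AI314180* was also lower in HPC in every pair, *Ube3c* (0.24, 1.84 and 0.09) and *Akirin2* (0.12, 0.32 and 0.13) were higher in every pair, and *Uchl5*, *Usp14* and *Txnl1* were mixed. *Nfe2l1*, the NRF1 gene, had 150.0, 221 and 176 CPM in HPC and 135, 232 and 157 CPM in LPC, a log2 fold change of 0.06. The immunoproteasome genes had low counts, with *Psmb8* at 0 to 16.3 CPM, *Psmb9* at 0.331 to 6.003 CPM and *Psmb10* at 0.572 to 7.97 CPM. The pathway genes named here lie outside the rule for named genes and were chosen after their values were seen.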

How the data were processed

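The values are raw counts per gene and library that the authors deposited; HTSeq is named in the table's title and its tally rows, and STAR and GRCm38 in the submitters' processing notes. Versions, annotation and use of strand are not given in the sources used here. Libraries were QuantSeq 3′ mRNA-Seq FWD with Illumina sequencing, per the labels' protocols.

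Genes were identified by mouse symbol, since 6 of the 46 rows carry a human symbol of another name. Tally rows were left out of library sizes. In R 4.3.3, filterByExpr (minimum count 10), TMM and edgeR 4.0.16 (glmQLFit and glmQLFTest, robust) compared the groups without a block, with Benjamini-Hochberg adjustment over all genes tested. The SE came from the test statistic. Within-pair differences are of log2 CPM with a prior count of 2. Alternatives were DESeq2 1.42.0, RLE scaling, no filter, a pair block, fewer libraries and no *RP23-81C12.3* or mitochondrial rRNA rows. Fits were tested on simulated data.

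The title suffix was taken to pair libraries: deviations from group means correlated at 0.466, 0.316 and 0.422, above the minimum of 0.1. Any 2 libraries differed by more than counting noise (lowest chi-square 13.5 times its degrees of freedom). Named genes were those of stated functions, the most abundant and most changed of each class, those past a threshold in any fit, and those without overlap. Members, classes, lists and alternatives were chosen with earlier results of these data known. Overlaps and copies (BLAST 2.17.0, at least 100 nucleotides at 95% identity) used GENCODE vM21 on GRCm38. Figures used matplotlib 3.10.9.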

Additional observations from a re-analysis of the deposited data

Results flagged for a closer look

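Reads that entered no comparison were present in every library. Those overlapping no annotated gene made up 12.4% to 29.5% of the tallied reads, and those overlapping more than 1 gene 0.487% to 2.51%. The highest share of the first kind and the lowest of the second were both in the HPC library of pair 2, and their part in the results above was not tested.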

How the results depend on the processing

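DESeq2, RLE scaling, no filter on low counts, the pair as a block, and removing *RP23-81C12.3* and mitochondrial rRNA rows reversed 0 of 120 fold changes of the 24 named genes. With the replicate block 0 genes were called and the median of the proteasome genes was -0.19. Without pair 2 and with the replicate block 155 genes were called, 2 of them proteasome genes, *Psmd4* and *Psmb11*; the cause was not tested. Leaving out libraries, singly or as pair 2, otherwise gave 0 calls. It moved the median of the proteasome genes between -0.38 (without LPC of pair 2) and -0.0099 (without HPC of pair 2), and the number lower in HPC between 23 and 40. It reversed 31 of 192 gene values, within these log2 ranges, with the value without pair 2 and with the block in brackets where it is reversed or outside the range: *Psmb11* -1.18 to 0.86 (0.88), *Psmb4* -0.41 to 0.18, *Psmb5* -0.37 to 0.20, *Psmb7* -0.14 to 0.71, *Psmd14* -0.64 to 0.57 (0.076), *Psmd7* -0.77 to 0.062, *Psmd8* -0.085 to 0.49, *Psme1* -0.47 to 0.56 (-0.23), *Psme2* -0.90 to 5.14e-05, *Psmf1* -0.14 to 0.82, *Psmg1* -1.25 to 0.085, *Psmg2* -0.19 to 0.27 (-0.19) and *Psmg3* -0.29 to 0.053 (-0.31). Removing 1 library leaves its partner unmatched, so these values also carry differences between pairs. In pair 2 depth limits the genes with fewer than 10 counts.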
